A study of Mus musculus with 6 samples.

Results

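The 51 keratin genes named on an Agilent mouse array were examined in cultured fibroblasts of mouse embryos (MEFs), cells of the connective tissue. Members were taken by name alone: every gene whose name on the array is Krt followed by a number and at most 1 letter, with control spots left out. They are 51 of the 24054 genes that could be named on the array, and 67 probes of 60 bases read them. A keratin is described as measured when at least 1 of its probes was well above background, by the scanner software's own flag, on at least 1 of the 6 arrays. That held for 27 keratins (52.94% of them), while 24 were well above background on no array. Among all named genes, 17696 (73.57%) met the same condition.

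Total RNA was measured on 6 single-colour arrays, 1 for each combination of 3 genotypes and 2 treatments. All cultures were MEFs of strain ICR, kept in the same medium with serum. Each genotype (wild type, Clk/Clk or Per2m/m) gave a mock array and an array of cells transfected with a vector that expresses H-Ras and SV40T. Clk/Clk is described as mutant in the clock gene Clock, and the labels do not describe the Per2m/m allele further. H-Ras is a growth-signalling GTPase and SV40T a viral protein that disables tumour suppressors. The labels do not say how many embryos or cultures stood behind an array, or whether transfected cells were pooled or cloned.

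Keratins are the intermediate filament proteins of epithelia. A filament is built from pairs of 1 type I and 1 type II keratin, so that Krt18 pairs with Krt8 in simple, single-layered epithelia, Krt14 with Krt5 in the basal layer of the epidermis and Krt10 with Krt1 above it. Fibroblasts build their filaments mainly from vimentin, and keratins in a fibroblast culture are known from mesothelial or epithelial cells carried along and from transformed cells in which single keratin genes become active. Bulk RNA cannot tell more cells of a type from more RNA per cell.

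Values called levels are log2 of the deposited processed signal minus the 75th percentile of that signal on the array, so a level of 0 lies at the 75th percentile of all probes. The lowest levels still well above background lay between −5.76 and −4.52, depending on the array. Each group held 1 array, so a difference between 2 arrays has no test and no replicate spread. Where a probe was spotted repeatedly, its spots varied with a median SD between 0.05 and 0.061 (log2), which covers spot noise only. Every keratin probe was a single spot per array. Levels are listed mock first and transfected after it, for wild type, then Clk/Clk, then Per2m/m. Levels of different probes are not set against each other, because probes differ in brightness.

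Of the 6 arrays, that of transfected Per2m/m cells was the least like the rest. Its median correlation with them across genes was 0.856, against 0.931 to 0.946 for each of the others, and 49.3% of its spots were well above background, against 53.5% to 57.2%. Its mock counterpart carried Xist at −0.53, Ddx3y at −0.05 and Eif2s3y at −0.81, RNAs of an inactive X and of the Y chromosome. None of the 3 was well above background after transfection, at −6.18, −6.74 and −6.85, while the transfected wild type and Clk/Clk arrays each matched their mock array in which of the 3 they carried. Uty, another gene of the Y chromosome, was well above background on the wild type and Clk/Clk arrays but on neither Per2m/m array. One label of the transfected Per2m/m sample names H-Ras without SV40, while another names both. Vim, the vimentin gene, was bright on all 6 arrays, at levels of 7.09 to 8.35, and 10 to 12 of the 12 fibroblast marker genes were well above background on each array. Of these 12, 6 were at least 2-fold lower in the wild type pair, 1 in the Clk/Clk pair and 9 in the Per2m/m pair. The last included Thy1, at −7.77 (log2), and Postn, at −7.24. Over all tested genes, 12.1%, 4.2% and 20.6% were lower by that much with the brighter array well above background. At least 2-fold higher were 1, 1 and 0 of the 12, against 7.4%, 3.72% and 18.6% of all tested genes. Epcam was well above background on no array.

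Probes of 4 keratins with large differences are shown, because each value below is the signal of 1 such 60-mer. For Krt8 it is the dimmer of its 2 probes. They are written 5′ to 3′ in the sense of the transcript, in lower case, and positions are given on build mm9, as in the files. The Krt7 probe lies at chr15:101253718-101253777, the Krt19 probe at chr11:100002392-100002451 and the Krt8 probe shown at chr15:101828827-101828886. The Krt14 probe spans an intron, between chr11:100064683 and chr11:100065288. All 4 lie in exons of their genes.
Krt7: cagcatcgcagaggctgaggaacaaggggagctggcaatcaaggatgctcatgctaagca
Krt19: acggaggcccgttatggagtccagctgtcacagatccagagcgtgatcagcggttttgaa
Krt8: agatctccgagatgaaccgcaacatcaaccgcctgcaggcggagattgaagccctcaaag
Krt14: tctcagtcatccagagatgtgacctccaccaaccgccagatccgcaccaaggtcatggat

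Hair keratins of type II are near-identical paralogues, and their probes were compared with every other probe on the array. The Krt81 and Krt83 probes matched each other at 51 of 55 overlapping bases (92.7%). The brightest Krt85 probe matched the Krt81 probe at 51 of 57 bases (89.5%) and the Krt83 probe at 50 of 58 (86.2%). The gene named Krt83 in the files carries the symbol Krt87 in the RefSeq gene table. Among other keratins, 1 of the 2 Krt5 probes and 1 of the 2 Krt6b probes matched at 38 of 47 bases (80.9%), and a Krt36 and the Krt39 probe at 36 of 46 (78.3%). Signal of these probes cannot be given to 1 gene with certainty. Only probes were compared, without gaps, over at least 40 bases and at an identity of at least 75%.

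Of the 27 measured keratins, 12 were well above background on all 6 arrays, 8 on exactly 5, 1 on 3, 2 on 2 and 4 on 1. The number per array was 23 on mock and 20 on transfected wild type cells, 22 and 19 for Clk/Clk, and 21 and 18 for Per2m/m, so that each transfected array had 3 fewer than its mock array. The share of all spots well above background was also lower on each transfected array, at 57.2% and 56.3%, 55.0% and 53.5%, and 54.3% and 49.3%. Without the transfected Per2m/m array, 26 keratins were measured on at least 1 array and 16 on all 5. Of those 16, Krt7, Krt10, Krt18 and Krt19 were not well above background on the transfected Per2m/m array, and Krt8 was well above background on that array alone.

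By role, all 7 simple epithelial keratins were measured on at least 1 array. So were 2 of 3 basal keratins (not Krt15), 2 of 4 keratins of stress and repair (not Krt6a or Krt17) and 5 of 12 keratins of suprabasal, mucosal and corneal layers (not Krt1, Krt4, Krt12, Krt24, Krt76, Krt77 or Krt78). In the hair follicle group, 4 of 8 inner root sheath keratins were measured (not Krt25, Krt26, Krt71 or Krt75). Of 15 keratins of the hair cortex and cuticle, 5 were measured (not Krt32, Krt33a, Krt33b, Krt34, Krt36, Krt39, Krt40, Krt82, Krt83 or Krt84). Krt42 and Krt222, which belong to no such class here, were both measured.

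**Figure D1:**
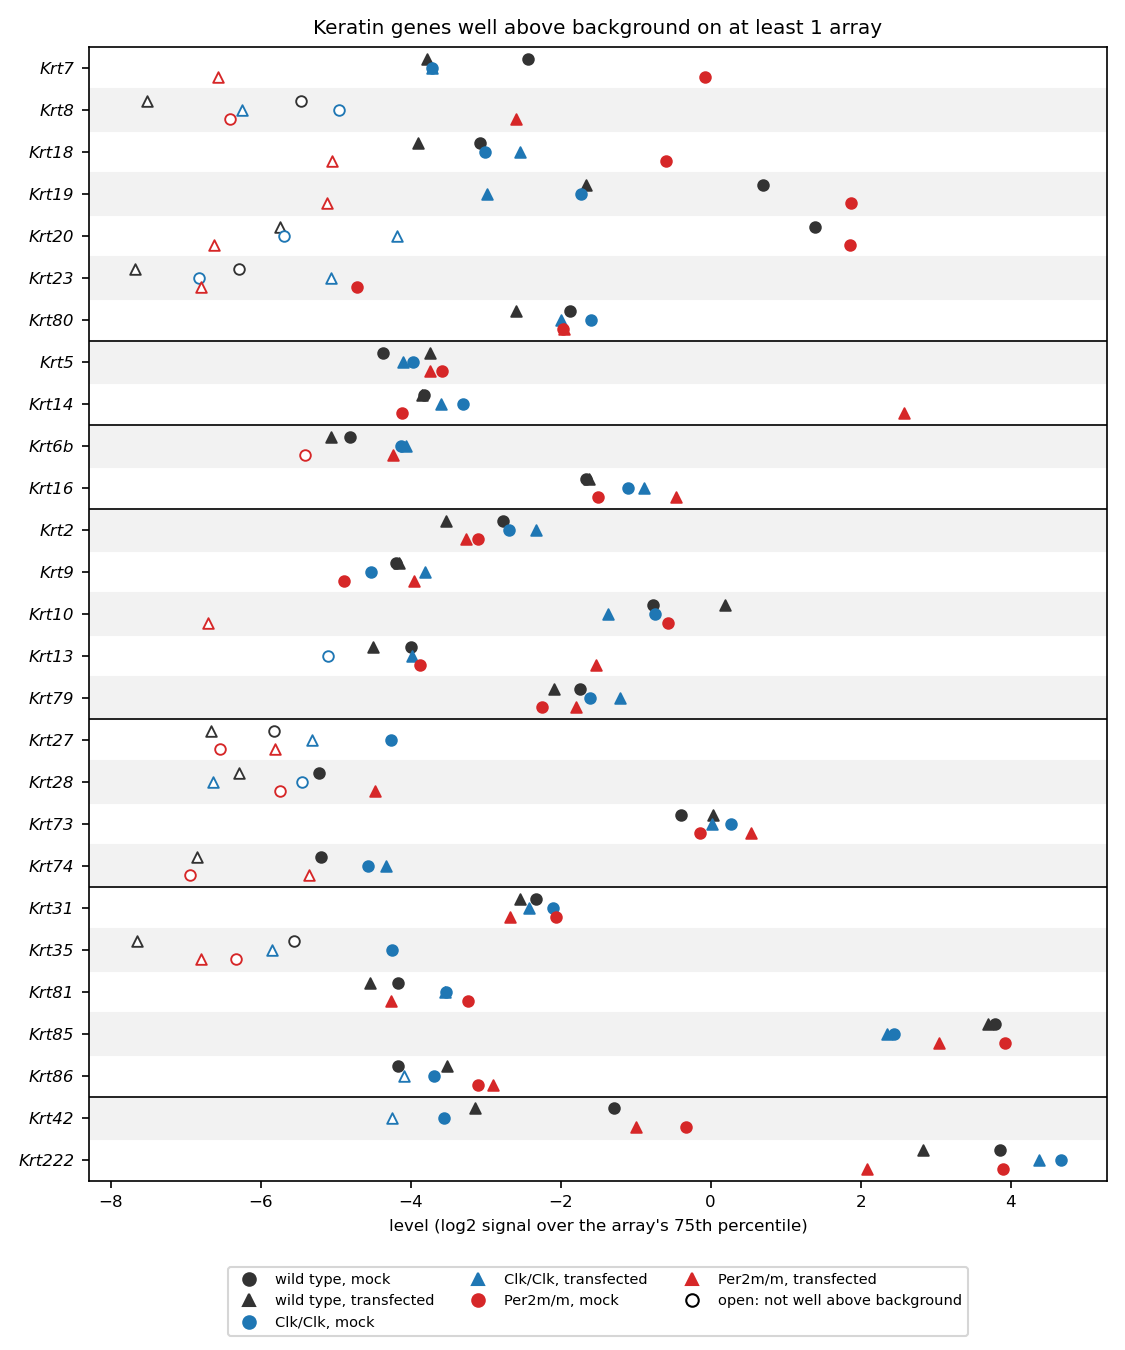
Level of each of the 27 measured keratins on each of the 6 arrays (x axis, log2 signal over the array's 75th percentile), grouped by role from simple epithelial at the top to Krt42 and Krt222 at the bottom. Circles are mock arrays, triangles transfected arrays, colours genotypes, and open symbols arrays on which the gene was not well above background. Krt14 and Krt8 stand out to the right on the transfected Per2m/m array alone, while Krt7, Krt18, Krt19 and Krt20 spread widely, with that array at the left end.

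Transfected cells were compared with mock cells of the same genotype to see which keratins differ with the vector. Keratins that differed by 2-fold or more, and whose brighter array was well above background, were counted. In wild type cells 0 keratins were higher and 7 lower, where the same rule called 7.4% of all tested genes higher and 12.1% lower. In Clk/Clk cells 1 keratin was higher and 3 lower, against 3.72% and 4.2% of all genes. In Per2m/m cells 6 were higher and 8 lower, against 18.6% and 20.6% of all genes. With 27 tested keratins, 25.9% were lower in the wild type pair, 11.1% in the Clk/Clk pair and 29.6% in the Per2m/m pair, where 22.2% were higher. When an array that was not well above background was set to the lowest level measurable on it, 0 higher and 5 lower were left for wild type, 0 and 1 for Clk/Clk, and 4 and 7 for Per2m/m.

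The simple epithelial keratins held the largest differences towards lower levels in transfected cells. Krt19, a short type I keratin of ducts and mesothelium, had levels of 0.70 on the mock and −1.66 on the transfected array (wild type), −1.74 and −2.99 (Clk/Clk) and 1.87 and −5.11 (Per2m/m). It was lower on the transfected array in each genotype, with log2 differences of −2.36 (wild type) and −1.25 (Clk/Clk). For Per2m/m the difference was at least 88.1-fold, because the transfected array was not well above background. Mock arrays of different genotypes were apart as well, with Clk/Clk 5.40-fold below and Per2m/m 2.25-fold above wild type.

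Krt20, a type I keratin of intestine and urothelium, was bright on only the mock wild type and mock Per2m/m arrays. Its level was 1.39 and −5.74 (wild type), −5.69 and −4.19 (Clk/Clk) and 1.86 and −6.62 (Per2m/m), mock first, and the other 4 arrays were not well above background. The wild type pair thus differed by at least 116-fold and the Per2m/m pair by at least 87.3-fold, with no measurable level on either Clk/Clk array. Between mock arrays, Clk/Clk lay at least 64.5-fold below wild type.

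Krt7, the type II keratin of ducts and mesothelium, stood at −2.43 and −3.78 (wild type), −3.71 and −3.72 (Clk/Clk) and −0.07 and −6.57 (Per2m/m). Krt18, the type I keratin of simple epithelia, stood at −3.08 and −3.90, −3.01 and −2.54, and −0.59 and −5.05 in the same order. Both were highest on the mock Per2m/m array, 5.14-fold and 5.61-fold above the mock wild type array, and not well above background on the transfected Per2m/m array. The difference within Per2m/m cells was at least 22.9-fold for Krt7 and at least 15.96-fold for Krt18. In wild type cells it was 2.54-fold lower for Krt7 and 1.77-fold lower for Krt18, and in Clk/Clk cells 1.00-fold and 1.39-fold, with Krt18 the higher one on the transfected array.

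Krt8, the usual partner of Krt18, ran the other way. Its brighter probe had levels of −5.46 and −7.52 (wild type), −4.96 and −6.25 (Clk/Clk) and −6.42 and −2.60 (Per2m/m), with only the transfected Per2m/m array well above background. The probe printed above gave −6.23, −7.35, −6.47, −6.33, −6.72 and −4.01 on the same arrays, again well above background on the transfected Per2m/m array only. Krt8 was thus at least 5.23-fold higher on that array than on its mock array by the first probe and at least 1.96-fold by the other. Krt18 was not well above background there.

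Krt23 was measured only on mock Per2m/m cells, at −4.72. Krt80, a type II keratin, was measured on all 6 arrays at −1.88 and −2.59, −1.59 and −1.999, and −1.97 and −1.95, a range of 0.998 (log2). As a group the 7 simple keratins had a median difference of −1.38 for the wild type pair, −0.01 for the Clk/Clk pair and −4.45 for the Per2m/m pair, against −0.01, 0.01 and 0.12 over all genes. These medians include values below background.

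Among basal keratins, Krt14 showed the largest difference towards a higher level of any keratin measured on both arrays of a pair. The type I keratin of the basal layer stood at −3.82 and −3.84 (wild type), −3.30 and −3.60 (Clk/Clk) and −4.12 and 2.57 (Per2m/m), well above background on every array. On the transfected Per2m/m array it was 103.7-fold above the mock Per2m/m array and 85.5-fold above the transfected wild type array. Over the other 5 arrays its range was 0.82 (log2), and over all 6 it was 6.70. Its partner Krt5 stayed between −4.36 and −3.59 on all 6 arrays by its brighter probe, a range of 0.78, and was at −3.74 on the transfected Per2m/m array. The other Krt5 probe, which resembles a Krt6b probe, was well above background on the mock Clk/Clk array only, at −4.09.

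Both measured keratins of stress and repair were counted as at least 2-fold higher on the transfected than on the mock Per2m/m array, and neither differed by 2-fold in the other pairs. Krt16, a type I keratin of wounded and hyperproliferative epidermis, stood at −1.67 and −1.63, −1.10 and −0.89, and −1.50 and −0.46, with the transfected Per2m/m array the highest at 2.05-fold above its mock array. Krt6b, a type II keratin of the same setting, stood at −4.81 and −5.06, −4.13 and −4.07, and −5.41 and −4.23, and only the mock Per2m/m array was not well above background. It was at least 1.68-fold higher on the transfected Per2m/m array than on the mock one. The other Krt6b probe, which resembles a Krt5 probe, was above background on no array. Whether the brighter Krt6b probe also reads Krt6a was not tested.

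In the suprabasal group 1 keratin was lower and 1 higher by over 2-fold on the transfected Per2m/m array than on its mock array. Krt10, the type I keratin of differentiating epidermis, had levels of −0.77 and 0.19, −0.74 and −1.37, and −0.57 and −6.70 by its brighter probe. It was well above background on 5 arrays and at least 16.2-fold lower on the transfected than on the mock Per2m/m array. The files give this probe of 60 bases a position of only 21 bases, chr11:99246538-99246558. The other Krt10 probe, at chr11:99247846-99247905, lay between −6.37 and −4.56 and was well above background on 2 arrays. It stood at −4.56 in mock Per2m/m cells, and the lowest measurable level on the transfected Per2m/m array was −4.59. It therefore could not show a difference of 16.2-fold. Krt1, its partner, was measured on no array.

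Krt13, a type I keratin of mucosal epithelia, stood at −3.99 and −4.50, −5.10 and −3.98, and −3.88 and −1.54, with the mock Clk/Clk array not well above background. The transfected Per2m/m array was the highest, 5.07-fold above its mock array and 7.81-fold above the transfected wild type array. In Clk/Clk cells the transfected array was at least 1.56-fold higher. The other Krt13 probe was well above background on the transfected wild type array alone, at −4.59. It stood at −4.62 on the transfected Per2m/m array, so the measured difference in Per2m/m cells rests on 1 probe. Whether the brighter probe also reads other type I keratins was not tested.

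Krt2, Krt9 and Krt79, keratins of the upper epidermis, palms and soles, and follicle openings, were measured on all 6 arrays. Krt2 stood at −2.77 and −3.52, −2.69 and −2.33, and −3.10 and −3.27, and its other probe was above background on no array. Krt9 stood at −4.20 and −4.15, −4.53 and −3.81, and −4.89 and −3.96. Krt79 stood at −1.74 and −2.09, −1.60 and −1.21, and −2.25 and −1.80. Their ranges over the 6 arrays were 1.19, 1.08 and 1.04, and none differed by 2-fold between a transfected array and its mock array. Krt9 in the Per2m/m pair lay close to that limit, at 0.93 (log2). Over the scalings and corrections it ran from 0.44 to 1.21. It passed the limit with each array scaled to its median and in the deposited value table.

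**Figure D2:**
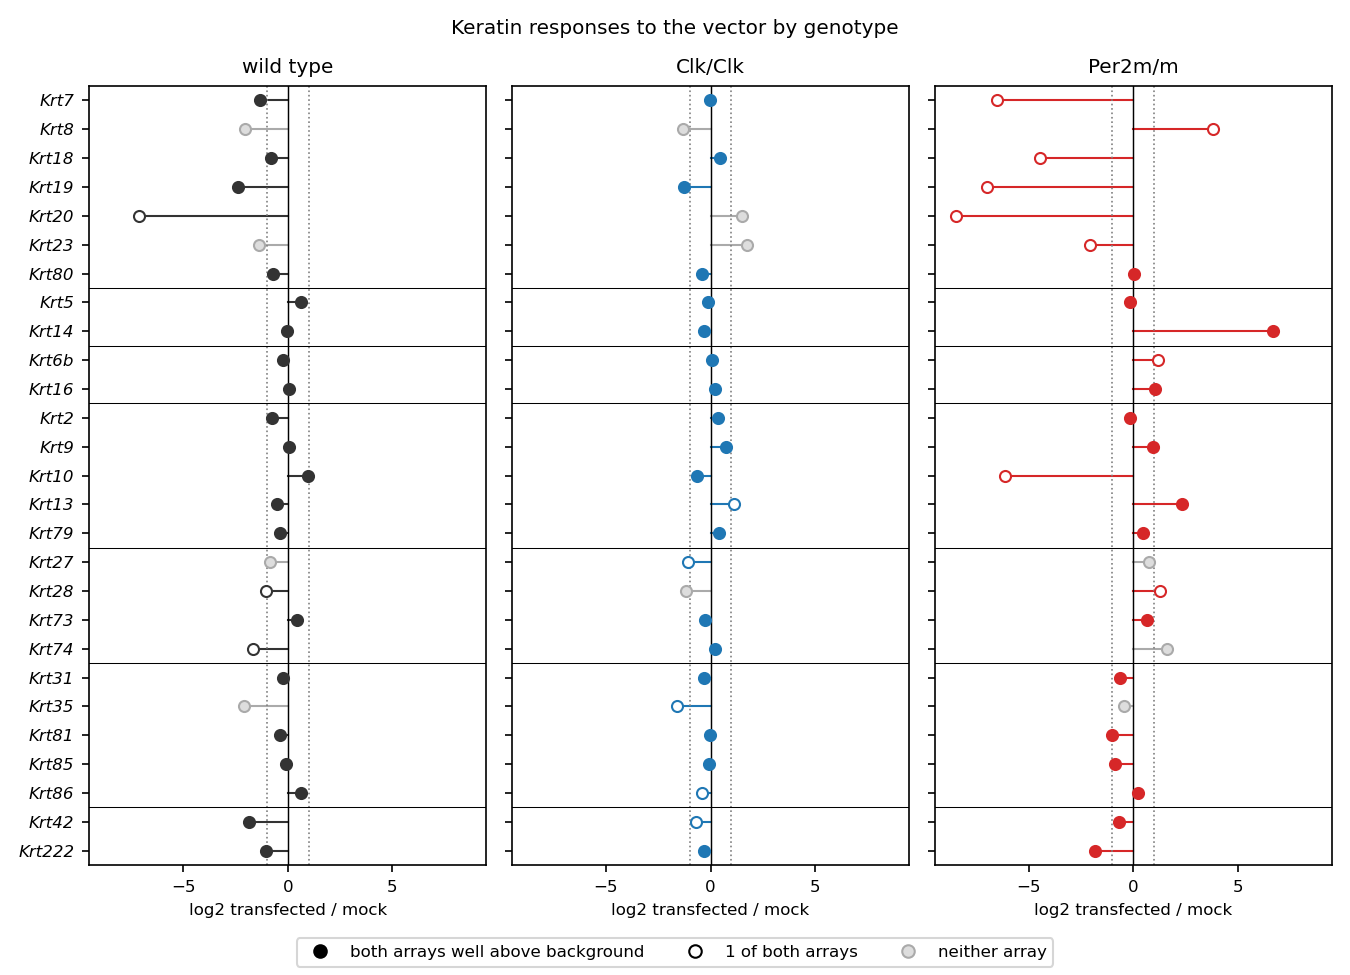
Log2 of transfected over mock signal in each genotype for the 27 measured keratins (x axis; dotted lines mark 2-fold). Filled symbols have both arrays well above background, open symbols 1 of them, and grey symbols neither, so open and grey ratios use values below background. Krt19 lies left of 0 in all 3 panels, and apart from Krt20 in wild type cells the widest ratios, those of Krt20, Krt19, Krt14, Krt7 and Krt10, lie in the Per2m/m panel.

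Inner root sheath keratins form the sheath that moulds the growing hair. Krt73, a type II keratin, was measured on all 6 arrays at −0.40 and 0.03, 0.27 and 0.01, and −0.14 and 0.53, a range of 0.93. The others were near background: Krt74 was well above background on 3 arrays, Krt28 on 2 and Krt27 on 1. Their levels lay between −6.95 and −4.26, and their counted differences of 2-fold or more rest on 1 array that was not well above background. The other Krt28 probe was above background on no array.

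The hair cortex and cuticle keratins showed no 2-fold difference between both wild type arrays. Krt31, a type I keratin, had levels of −2.33 and −2.54, −2.11 and −2.42, and −2.06 and −2.68. Krt81, a type II keratin, had −4.17 and −4.54, −3.54 and −3.55, and −3.23 and −4.27, with the transfected Per2m/m array 2.05-fold below its mock array. Krt86, another, had −4.17 and −3.52, −3.69 and −4.09, and −3.11 and −2.90, and the transfected Clk/Clk array was not well above background. Krt35 was measured on the mock Clk/Clk array alone, at −4.26.

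Krt85 gave opposite pictures by probe. Its brightest probe, for which the files give no position, stood at 3.80 and 3.70, 2.44 and 2.35, and 3.93 and 3.05, lowest on both Clk/Clk arrays, which lay 2.56-fold below wild type among mock and 2.54-fold among transfected arrays. This is the probe that resembles those of Krt81 and Krt83, so its signal cannot be given to Krt85 with certainty. A probe at chr15:101346117-101346176 stood at −1.73 and −1.57, −0.36 and −0.51, and −1.48 and −1.21, highest on both Clk/Clk arrays, at 2.59-fold and 2.08-fold above wild type. A further probe, at chr15:101261695-101261754, was well above background on no array and lies near the Krt83 probe, at chr15:101263556-101263615. The genotype difference of Krt85 therefore depends on the probe read, and no direction is given for the gene.

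Krt42, a type I keratin that is a pseudogene in humans, stood at −1.28 and −3.14, −3.55 and −4.25, and −0.33 and −1.001, with the transfected Clk/Clk array not well above background. Both Per2m/m arrays were the highest and both Clk/Clk arrays the lowest. The transfected array was 3.62-fold lower for wild type, at least 1.62-fold for Clk/Clk and 1.60-fold for Per2m/m. Its other probe was above background on no array.

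Krt222, a keratin-like gene, stood at 3.86 and 2.84, 4.67 and 4.38, and 3.90 and 2.09. The transfected array was lower in all 3 genotypes, by 2.04-fold, 1.22-fold and 3.51-fold. This probe holds a run of 22 bases of a repeated dinucleotide and matched probes of 3 other genes at 75% to 77.5% over 40 or 41 bases. The other Krt222 probe was above background on no array, so the signal cannot be given to Krt222 with certainty.

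**Figure D3:**
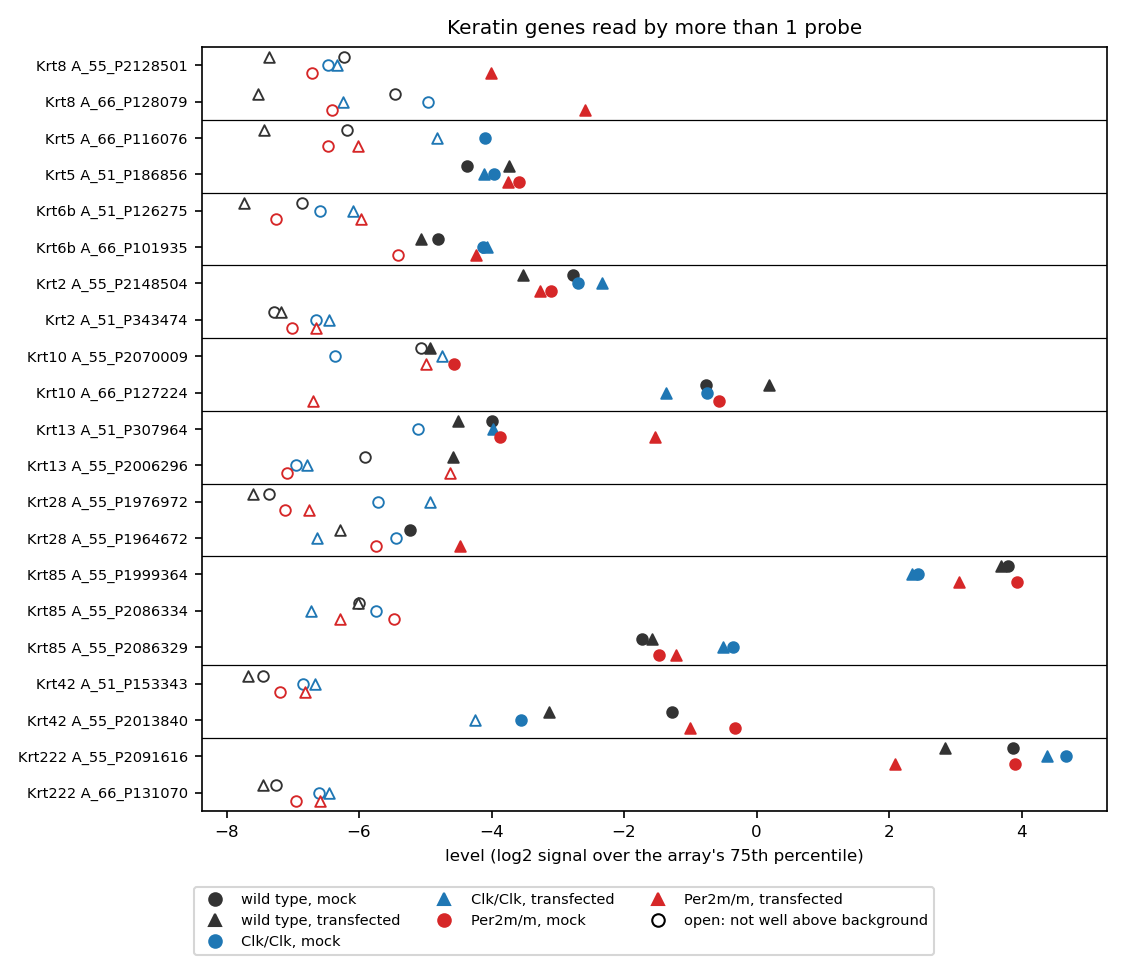
Level on each array (x axis, log2 signal over the array's 75th percentile) of every probe of the measured keratins that are read by more than 1 probe; symbols as in the plot of keratin levels. The Krt8 probes both stand out on the transfected Per2m/m array, while the probes of Krt10, Krt13, Krt85, Krt42 and Krt222 differ in which arrays are high or above background.

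In all, 14 keratin genes had more than 1 probe. In 6 of them a probe was well above background and another on no array, and in 4 no probe was. The 12 keratins measured on all 6 arrays had a median range of 1.14 (log2) over the arrays, against 1.20 over the 12867 genes measured on all 6, and 4 of them (33.3%) stayed within 2-fold, against 36.8% of those genes. Without the transfected Per2m/m array the medians were 1.02 and 0.88.

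A fit across all 17696 tested genes, with genotype and transfection as terms and no interaction (limma, Benjamini-Hochberg adjusted p under 0.05), gave 0 keratins for transfection, for Clk/Clk against wild type or for Per2m/m against wild type. It called 0.0% of all genes in each comparison. At an unadjusted p under 0.05, limma gave 2 keratins for transfection (Krt35 and Krt42), 3 for Clk/Clk (Krt35, Krt42 and Krt85) and 1 for Per2m/m (Krt42), against 4.63%, 9.65% and 2.29% of all genes. The lowest adjusted p among keratins in limma was 0.695, 0.459 and 0.934 for the 3 comparisons.

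The transfection term of Krt19 was −3.53 ± 1.29 (SE, 6 arrays), of Krt20 −4.70 ± 2.27 and of Krt7 −2.62 ± 1.45. It was −1.60 ± 1.09 for Krt18, −1.07 ± 0.37 for Krt42 and −1.04 ± 0.40 for Krt222. These 6 genes were lower on transfected arrays on average, and none passed the test. Without either Per2m/m array the terms were −1.81 for Krt19, −2.82 for Krt20, −0.67 for Krt7, −0.17 for Krt18 and −0.66 for Krt222. Without either Clk/Clk array Krt20 was at −7.81 and Krt18 at −2.64, and without either wild type array Krt42 was at −0.68. The fit has no interaction term, so differences between genotypes in the response are part of these errors. For Krt14 the term was 2.13 ± 1.67 and for Krt10 −1.93 ± 1.57, and both turned sign, to −0.16 and 0.17, when either Per2m/m array was left out. For Per2m/m against wild type, leaving out the mock Per2m/m array leaves 1 residual degree of freedom and 1 Per2m/m array, which is assumed to vary like the wild type and Clk/Clk pairs. The Per2m/m term was then 6.49 for Krt14 and 4.73 for Krt8. It rests on the transfected Per2m/m array alone, so only its size is given. Krt8 had entered the fit through the transfected Per2m/m array, the only one on which it was well above background. Its term therefore sets that array against values below background.

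Genotypes were also compared array by array. Between mock arrays, Clk/Clk against wild type had 2 keratins higher (Krt27 and Krt35, both near background) and 6 lower, against 10.8% and 10.4% of all genes. The 6 were Krt7, Krt13, Krt19, Krt20, Krt42 and Krt85, the last by its brightest probe alone. Per2m/m against wild type had 5 higher, Krt7, Krt18, Krt19, Krt23 and Krt86, and 1 lower, Krt74, against 4.37% and 4.66% of all genes. These mock arrays do not involve the array of transfected Per2m/m cells, and share the wild type mock array as their reference. Of the 7 simple keratins, 4 were thus at least 2-fold higher in mock Per2m/m than in mock wild type cells.

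Between transfected arrays, Clk/Clk against wild type had 4 keratins higher (Krt2, Krt18, Krt74 and Krt222) and 4 lower (Krt10, Krt19, Krt42 and, by its brightest probe alone, Krt85), against 14.3% and 10.9% of all genes. Per2m/m against wild type had 6 higher (Krt8, Krt13, Krt14, Krt16, Krt28 and Krt42) and 4 lower (Krt7, Krt10, Krt18 and Krt19), against 14.7% and 16.2%. All 10 of the latter rest on the transfected Per2m/m array.

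Proteins that anchor and bind keratin filaments were read from lists chosen with the keratins. As above, the same rule called 7.4% of all genes higher and 12.1% lower in the wild type pair, 3.72% and 4.2% in the Clk/Clk pair, and 18.6% and 20.6% in the Per2m/m pair. Of 16 desmosome genes, 9 were measured, with 4 higher and 1 lower by 2-fold or more in transfected wild type cells, 1 and 0 for Clk/Clk and 1 and 5 for Per2m/m. Perp, a desmosome membrane protein, had levels of 1.21 and 3.76 (wild type), −5.08 and −3.55 (Clk/Clk) and 3.32 and −6.66 (Per2m/m). It shared with Krt7, Krt18 and Krt19 a level not well above background on the transfected Per2m/m array, at least 240-fold below the mock array, but was higher on the transfected than on the mock wild type array. All 9 hemidesmosome genes were measured, with 3 higher and 1 lower in Per2m/m cells, against 18.6% and 20.6% of all genes, among them Col17a1, a collagen of basal keratinocytes, at least 6.15-fold higher.

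Of 11 genes for keratin-binding proteins, 9 were measured, with 2 higher and 2 lower in Per2m/m cells, near the share of all genes (18.6% and 20.6%). The wild type pair had 2 higher and 0 lower (7.4% and 12.1% of all genes), and the Clk/Clk pair 0 and 1 (3.72% and 4.2%). Trim29, a protein of basal epithelial cells, was measured only in transfected Per2m/m cells, at 1.65 and at least 99.1-fold above its mock array. Eppk1, the keratin-organising epiplakin, stood at −2.47 and −2.20, −4.02 and −4.05, and −3.32 and 1.41. Both had the same highest array as Krt14 and Krt8. Tchh went the other way, measured only in mock Per2m/m cells, at −3.56, and at least 2.04-fold lower on the transfected array. Ppl was at least 4.83-fold higher in the wild type pair and not well above background on either Per2m/m array.

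Of 14 epithelial regulators, 11 were measured, with 1 higher and 4 lower for wild type, 1 and 0 for Clk/Clk, and 5 and 1 for Per2m/m (18.6% and 20.6% of all genes). Tfap2a, a transcription factor of surface ectoderm, stood at −2.86 and −4.50, −5.88 and −5.72, and −3.16 and 1.67, and Klf4 was higher by 3.40 (log2) on the transfected than on the mock Per2m/m array. Esrp2, a splicing factor of epithelial cells, was lower, by at least 8.71-fold in the Per2m/m pair and at −3.31 (log2) in the wild type pair. Trp63, the master regulator of basal keratinocytes, stayed between 2.57 and 3.03 on all 6 arrays. Among 6 mesenchymal repressors of epithelial genes, 0 differed by 2-fold in wild type or Clk/Clk cells, and in Per2m/m cells Snai2 was higher, at 1.29, and Snai1 lower, at −1.67 (log2).

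Of 15 other intermediate filament genes measured, 3 were higher and 5 lower for wild type, 0 and 2 for Clk/Clk, and 1 and 5 for Per2m/m (18.6% and 20.6% of all genes). Nefl, a neurofilament subunit, was measured only in transfected wild type cells, at least 88.0-fold above its mock array.

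Markers of epithelial, mesothelial, endothelial and macrophage cells were read beside the members. Of 18 epithelial markers that are not keratins, 8 were well above background on each mock array and 6 on each transfected array, and the log2 of their summed signal, on the scale of levels, ran from 1.05 to 2.20 on mock and from 1.35 to 2.26 on transfected arrays. Cdh1, the epithelial cadherin, was well above background on the transfected Per2m/m array only, at −3.29 and at least 3.23-fold above its mock array. Cdh3, the placental cadherin, went the other way, at least 20.1-fold lower in the wild type and at least 9.42-fold lower in the Per2m/m pair. Of the 12 measured epithelial markers, 1 was higher and 2 lower by 2-fold or more in wild type cells, 0 and 1 for Clk/Clk and 1 and 1 for Per2m/m. The shares of all genes were 7.4% and 12.1%, 3.72% and 4.2%, and 18.6% and 20.6%. Of 7 mesothelial markers that are not keratins, 1 to 3 were well above background per array, and the same sum ran from −0.71 to 2.91 on mock and from 1.39 to 5.07 on transfected arrays. The highest sum was almost wholly Msln, at 5.06 on the transfected Per2m/m array. For Clk/Clk the sum was 2.91 on the mock and 1.47 on the transfected array. The median level of the 4 measured markers was lower on each transfected array, at −3.99 and −6.45, −2.86 and −3.91, and −2.57 and −5.33. These medians include values below background.

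Wt1, a mesothelial transcription factor, was at least 15.2-fold lower in transfected wild type and at least 10.5-fold lower in transfected Per2m/m cells. In the Clk/Clk pair Wt1 was also lower, at −2.25 (log2). Krt20 was lower in the wild type and Per2m/m pairs too, but was not well above background on either Clk/Clk array. Msln, mesothelin, was higher by 3.39 and 4.76 (log2) in transfected wild type and Per2m/m cells, and lower, at −1.28, in the Clk/Clk pair. Of 6 measured endothelial markers, 2 to 5 were well above background per array. Macrophage markers were well above background for 14 of 15 genes in mock wild type, 9 in mock Clk/Clk and 15 in mock Per2m/m cells, and for 9 on every transfected array. The mock wild type and mock Per2m/m arrays that carried more of them are also those with Krt20 well above background. The part of these other cells in the keratin levels was not tested.

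**Figure D4:**
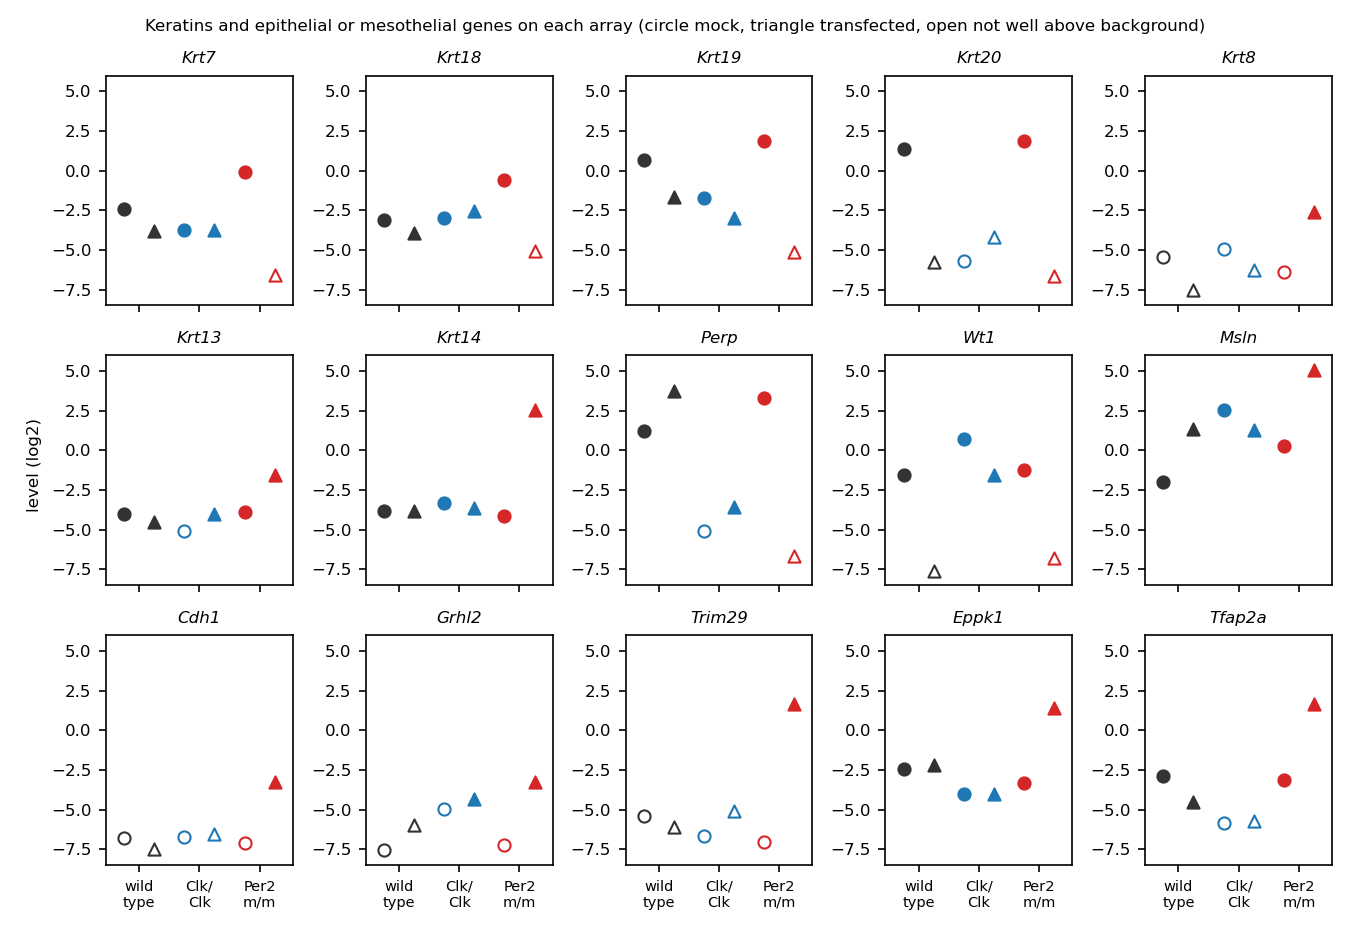
Level on each array (y axis, log2 signal over the array's 75th percentile) of 7 keratins and 8 epithelial, desmosome or mesothelial genes, by genotype; circles are mock, triangles transfected, open symbols not well above background. Krt8, Krt13, Krt14, Trim29, Eppk1, Tfap2a, Cdh1, Grhl2 and Msln have their highest level on the transfected Per2m/m array, where Krt7, Krt18, Krt19, Krt20, Perp and Wt1 are not well above background.

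Promoter sequences were read from RefSeq on build GRCm38.p6, as the 250 bases before the start site, for 34 of the 51 keratin genes (35 entries). A TATA box (TATAAA, either strand) was present in 16 of 35 (45.7%), against 12.4% of 32851 promoters of all genes. The GC box GGGCGG was present in 2 (5.71%, against 32.7%), the AP-1 site TGANTCA in 2 (5.71%, against 6.75%) and the E-box CACGTG in 3 (8.57%, against 6.02%), and no matches of different motifs overlapped. Krt20 and Krt7 are shown because both were highest on the mock Per2m/m array and not well above background on the transfected one, and their promoters differ in these motifs. Capitals mark the TATA box in Krt20, 29 bases before the start site, and the 4 GC boxes in Krt7, on both strands. The Krt20 window is chr11:99438154-99438403 on the minus strand and the Krt7 window chr15:101412153-101412402 on the plus strand.
Krt20: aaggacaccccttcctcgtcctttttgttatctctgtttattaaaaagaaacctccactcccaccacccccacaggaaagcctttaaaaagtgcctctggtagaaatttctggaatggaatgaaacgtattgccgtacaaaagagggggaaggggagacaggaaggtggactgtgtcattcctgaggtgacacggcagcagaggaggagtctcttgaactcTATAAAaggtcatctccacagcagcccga
Krt7: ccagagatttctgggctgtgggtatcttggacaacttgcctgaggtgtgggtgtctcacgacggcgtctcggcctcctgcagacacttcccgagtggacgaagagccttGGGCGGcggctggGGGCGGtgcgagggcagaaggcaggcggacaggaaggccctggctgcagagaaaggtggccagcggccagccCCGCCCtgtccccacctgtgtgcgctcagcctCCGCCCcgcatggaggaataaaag
E-boxes lay in the windows of Krt23, Krt75 and Krt78, and AP-1 sites in both windows of Krt13. Neither Krt14 nor Krt8 nor Krt18 held any of the 4 motifs in these windows.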

How the data were processed

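The deposited scanner files of 6 arrays hold linear intensity values, 1 per spot. Feature Extraction 10.7.1.1 made them, per the file headers, with detrending and surrogate values for dim spots on, while the submitters' processing notes name version 9.5.1.1. The deposited value table of the series also holds intensity, with a median of 23.8 in each column and a correlation of at least 0.998 with its own array across probes; no source names the software behind it.

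Control and outlier spots were left out, and the processed signal was log2-transformed and each array's 75th percentile subtracted. Probes well above background on at least 1 array were kept, each gene was read by its kept probe of highest mean level, and names came from a RefSeq table or the file. Of 55681 probes, 33198 were named. A dim array gives only a bound, "at least N-fold", set against the higher of its own level and the lowest level of a probe well above background there. limma 3.58.1 in R 4.3.3 fitted genotype and transfection (lmFit, eBayes, 2 residual degrees of freedom), tested on simulated data. Its p-values measure only the spread between these 6 samples. Values on every array are given for keratins well above background on at least 4 arrays or at least 4-fold apart between a mock and a transfected array, and of each other list at most the 4 genes with the largest response are named, besides Vim, Cdh1, Epcam and Trp63. The sex-linked genes were chosen after their values were seen. Members and lists were chosen with earlier results of these data known. Alternatives changed the scaling, background correction, probe rule, filter, bound and arrays used. The sequences of the hair keratin probes are not reported here.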

Additional observations from a re-analysis of the deposited data

Results flagged for a closer look

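Krt28, an inner root sheath keratin, differed in direction between genotypes: the transfected array lay at −1.06 (log2) relative to the mock array in wild type cells and at 1.27 in Per2m/m cells. In each pair 1 of both arrays was not well above background, so the measurable differences are at least 1.18-fold lower and at least 1.42-fold higher. The other Krt28 probe was well above background on no array, so both directions rest on 1 probe. The difference between genotypes was not tested.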

How the results depend on the processing

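Each group held 1 array, and signal over background limits the keratin values, since many lie near the lowest measurable level. The 2-fold counts, as higher and lower, were sensitive to how dim probes were treated. The count of measured keratins is 12 when all 6 arrays must be well above background. With that filter, the lower count was 1 in wild type; Clk/Clk had 0 higher and 0 lower, and Per2m/m 2 and 2. Between mock arrays it left 0 higher and 1 lower for Clk/Clk and 0 and 0 for Per2m/m, and between transfected arrays 2 and 1, and 2 and 0. With normexp background correction (offset 50), the lower count in wild type was 3, Clk/Clk had 0 higher and 0 lower, and 3 were higher in Per2m/m. It gave 0 higher for mock Clk/Clk, 3 higher and 0 lower for mock Per2m/m, 1 higher and 2 lower for transfected Clk/Clk and 2 lower for transfected Per2m/m. Scaling each array to its median gave 1 higher in wild type and 1 higher for Clk/Clk against wild type, both among mock and among transfected arrays. The deposited value table gave 1 and 2 there. The mean over probes gave 0 higher in Clk/Clk and 2 lower for transfected Clk/Clk. Dim arrays set at their bound gave 0 higher and 1 lower in Clk/Clk. Median scaling moved the median of all genes from −0.01 to 0.30 in wild type and from 0.12 to 0.40 in Per2m/m cells. Over the scalings and corrections, the difference within Per2m/m cells ran from 5.17 to 6.98 for Krt14, 1.19 to 4.10 for Krt8, −6.98 to −4.48 for Krt19, −6.50 to −2.70 for Krt7 and −6.38 to −2.41 for Krt10. Some keratins well above background on at least 4 arrays or at least 4-fold apart came under 2-fold with at least 1 of these settings. They were Krt6b, Krt16, Krt23 and Krt81 in Per2m/m, Krt7 and Krt222 in wild type and Krt13 and Krt19 in Clk/Clk cells. Each kept its direction. Krt27, Krt28, Krt35 and Krt74 lie outside that set and were not followed singly. Leaving out 1 array at a time leaves 1 array of a genotype, so only effect sizes are given for those fits. The transfection term of Krt10 then ran from −3.38 to 0.165 and that of Krt14 from −0.160 to 3.34, and each turned sign without either Per2m/m array. Pairing of mock and transfected arrays by genotype is already part of the fit, through its genotype term, and no separate paired analysis was run. The cause of these shifts was not tested, beyond the fewer genes that a stricter filter keeps.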
